A study of Mus musculus with 556 samples.

Results

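The Hox genes examined here are the 39 protein-coding genes with a symbol of Hoxa, Hoxb, Hoxc or Hoxd followed by digits, out of 20661 protein-coding autosomal genes, placed on mouse build mm10 (GRCm38). HoxA held 11 of them, HoxB 10, HoxC 9 and HoxD 9. Each gene was assigned to the 100 kb bin of the deposited table that holds its midpoint, which put the 39 genes into 9 of the 24022 autosomal bins with a value. The measurement was DamID of the nuclear lamina in single cells: a bacterial DNA adenine methyltransferase (Dam) fused to lamin B1 methylates GATC sites near the lamina, and Dam alone methylates accessible GATC sites. Values are observed over expected reads (OE), so that an OE of 1 means that observed and expected reads of the bin were equal.

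The table held 512 of the series' 556 samples, each of them 1 cell or 1 pronucleus, and 498 could be placed in a group, 360 with Dam-lamin B1 and 138 with Dam. Over stages the groups were oocytes (56 Dam-lamin B1, 43 Dam), zygotes (19 and 46), 2-cell embryos (47 and 45), 8-cell embryos (41 and 4) and ES cells, cultured pluripotent cells, with 10 Dam-lamin B1 cells. Zygotes that also received mRNA of the histone H3 lysine 4 demethylase Kdm5b numbered 14 with the wild-type form and 9 with the mutant form. Mechanically separated pronuclei numbered 15 paternal without Kdm5b, 19 with the wild-type and 6 with the mutant form, and 10, 19 and 13 maternal in that order. The injected mRNA differed between stages: 5 ng/µl of Dam-lamin B1 in oocytes and zygotes, 10 in 2-cell and 20 in 8-cell embryos, against 20 ng/µl of Dam in oocytes and zygotes and 40 in both later stages, with Kdm5b at 2 µg/µl. Further oocytes carried labels of 20 ng (17 cells) and 50 ng (23 cells) of Dam-lamin B1 mRNA. All injected oocytes and embryos also received TIR1, which degrades the auxin-tagged Dam proteins until auxin is withdrawn, and membrane-EGFP, and were left 6 to 8 h without auxin. Other zygotes received wild-type (12) or mutant (10) Kdm4d, a histone H3 lysine 9 demethylase, or were labelled DMSO (11) or aphidicolin (9), a DNA replication inhibitor. The strain labels read C57BL/6 for oocytes and pronuclei, C57BL/6 mothers and CAST/EiJ fathers for zygotes and cleavage stages, and 129/Sv by CAST/EiJ for ES cells, while the growth protocol names F1 (CBAxC57BL/6J) mothers aged 5 to 8 weeks. For Dam-lamin B1 the strain label or the mRNA dose differed between neighbouring stages and cannot be told apart from stage, whereas Dam in 2-cell and 8-cell embryos shared both.

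Hox genes encode homeodomain transcription factors that pattern the body axis, and within each cluster their order along the chromosome follows the order of their expression along that axis. In pluripotent cells the clusters are held silent by Polycomb repressors, many of their promoters carrying active and repressive histone marks together, and trithorax proteins maintain their activity later on. The nuclear lamina is a filament network under the nuclear envelope, and lamina-associated domains (LADs) are typically gene-poor and silent. Kdm5b is a demethylase of histone H3 lysine 4, a residue whose methylation marks active promoters.

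HoxA spanned chr6:52155367-52260880, HoxB chr11:96194316-96368254, HoxC chr15:102921131-103036856 and HoxD chr2:74668225-74765142. Within these spans lie miRNA genes, and mature sequences are printed here from RefSeq (GRCm38.p6). Those of miR-196 and miR-10 share seeds across clusters, which places the same seeds in bins with different contact values. The seed of miR-615-3p, also printed, is shared with no other of them. Capitals mark the seed, bases 2 to 8.
miR-196b-5p (HoxA): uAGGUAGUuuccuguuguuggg
miR-196a-5p (HoxB and HoxC): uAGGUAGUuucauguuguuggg
miR-10a-5p (HoxB): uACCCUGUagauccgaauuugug
miR-10b-5p (HoxD): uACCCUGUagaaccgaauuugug
miR-615-3p (HoxC): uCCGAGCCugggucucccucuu
Mir196b (chr6:52230129-52230150, minus strand) shares the bin of Hoxa5 to Hoxa13, and Mir196a-1 (chr11:96265187-96265208, plus strand) the bin of Hoxb6 to Hoxb9. Mir196a-2 (chr15:102973365-102973386) lies with Hoxc8 to Hoxc13, Mir615 (chr15:103014969-103014990) with Hoxc4 to Hoxc6, Mir10a (chr11:96317186-96317208) with Hoxb1 to Hoxb5, and Mir10b (chr2:74726074-74726096) with Hoxd1 to Hoxd8, all on the plus strand.

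Dam can mark only GATC sites, so the promoters were read for that motif (GATC, a palindrome, hence the same on both strands). RefSeq promoter entries of 300 bases, 250 before to 50 after the start, matched 22 of the 39 genes with 24 entries. At least 1 GATC was present in 16 of the 24 (66.7%), against 15758 of 32851 (48.0%) of all promoters of that length. The median number of CG dinucleotides was 14.5 in the Hox entries and 7 in all. The promoters of Hoxd13, Hoxd8 and Hoxb8, with 0, 1 and 2 such sites, are printed as examples of what a promoter offers to Dam, 5′ to 3′ with GATC in capitals. The number varied within a bin: the entries of Hoxd9 to Hoxd13, which share 1 bin, hold 0 to 2 sites.
Hoxd13 (chr2:74667975-74668274, plus strand): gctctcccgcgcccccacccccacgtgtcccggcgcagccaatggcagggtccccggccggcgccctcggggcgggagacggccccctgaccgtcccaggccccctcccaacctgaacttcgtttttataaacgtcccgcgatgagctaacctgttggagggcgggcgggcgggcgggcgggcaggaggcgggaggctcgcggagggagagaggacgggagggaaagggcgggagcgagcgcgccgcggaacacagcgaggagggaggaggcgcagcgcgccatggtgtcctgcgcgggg
Hoxd8 (chr2:74704365-74704664, plus strand): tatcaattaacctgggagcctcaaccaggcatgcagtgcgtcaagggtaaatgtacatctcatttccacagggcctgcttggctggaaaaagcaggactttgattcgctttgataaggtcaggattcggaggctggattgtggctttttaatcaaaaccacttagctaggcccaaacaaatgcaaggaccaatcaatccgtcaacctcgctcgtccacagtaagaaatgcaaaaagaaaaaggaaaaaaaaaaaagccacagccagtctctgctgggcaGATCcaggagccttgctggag
Hoxb8 (chr11:96281655-96281954, plus strand): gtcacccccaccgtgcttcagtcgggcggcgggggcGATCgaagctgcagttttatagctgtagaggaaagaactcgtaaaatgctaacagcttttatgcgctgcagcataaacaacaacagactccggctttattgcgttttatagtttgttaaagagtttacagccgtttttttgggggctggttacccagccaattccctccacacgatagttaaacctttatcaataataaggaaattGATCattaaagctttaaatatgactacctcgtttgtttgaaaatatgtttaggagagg
A match describes the letters in this window and says nothing of methylation at that site, since the table has no value below 100 kb.

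All 9 Hox bins lay outside the LADs of both deposited lists, of the inner cell mass (ICM, 460 LADs) and of the trophectoderm (TE, 503 LADs), as did 7688 of the 24022 bins (32%). The clusters differed in how far away the nearest LAD was. HoxA and HoxB stood in the open: in the ICM list the LADs nearest to HoxA began 1155 kb to the left and 3239 kb to the right, and those nearest to HoxB 2394 and 2732 kb away. HoxC sat beside a LAD of 0.7 Mb, 263 kb to its right in the ICM list and 363 kb away in the TE list. HoxD changed most between the lists. Its nearest ICM LADs were 5368 kb to the left and 2635 kb to the right, in an interval of 8.1 Mb free of LADs, whereas the TE list has LADs of 0.4 and 0.6 Mb at 268 kb to the left and 135 kb to the right, which leaves 0.5 Mb. Over all chromosomes, the intervals between LADs had a median of 1.4 Mb in the ICM list and 1.2 Mb in the TE list. The Hox bins were gene-dense, with 3 to 7 protein-coding genes each, against a mean of 0.854 per bin over all bins and 1.59 in bins outside both lists. The expected reads of the Hox bins were 92.5% to 116% of those of the median bin.

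The depth recovered from the table was 23563 to 2182116 reads per cell, with a median of 71770. That left few reads per Hox bin: a median of 1 in 2-cell and 8-cell Dam-lamin B1 cells, 2 in oocytes, zygotes and ES cells, and 10 in oocytes with Dam. Single-bin values are therefore coarse, and 27.4% of Hox bin values in 2-cell Dam-lamin B1 cells were 0. Cluster values below are the mean OE over the 2 bins of HoxA, HoxC or HoxD or the 3 bins of HoxB. A cluster is called in contact in a Dam-lamin B1 cell at an OE of at least 1. In Dam cells the same threshold marks accessibility signal, not lamina contact. As a check on the labels, bins inside the LADs of both lists were compared with bins outside both. The log2 ratio was above 0 in 19 of 19 zygotes, 46 of 47 2-cell, 40 of 41 8-cell and 10 of 10 ES cells with Dam-lamin B1, but in 12 of 56 oocytes (mean −0.17), and below 0 on average in every Dam group (−0.45 to −1.98). Oocyte Dam-lamin B1 values thus did not follow these LADs, and they are read below as values of that library only. For oocytes an OE of at least 1 is not read as lamina contact, also where clusters are counted per cell.

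Across stages, HoxA stayed low with Dam-lamin B1 while HoxD varied most. From zygotes on, HoxA lay near the mean of bins outside both LAD lists, given below. Stages were described and not tested, because blastomeres of 1 embryo cannot be told from those of another by the labels, and the ES cells have no second culture named.

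HoxA, whose genes include Hoxa2 of the hindbrain and Hoxa13 of the limb and urogenital tract, had a mean OE of 0.593 ± 0.389 (SD, n = 56) in oocytes, 0.710 ± 0.498 (n = 19) in zygotes, 0.664 ± 0.529 (n = 47) in 2-cell embryos, 0.566 ± 0.580 (n = 41) in 8-cell embryos and 0.604 ± 0.367 (n = 10) in ES cells. The means lie closer to each other than any of these SDs, so no order of stages could be read for HoxA. It was at an OE of at least 1 in 8 of 56 oocytes (14.3%). HoxA was in contact in 5 of 19 zygotes (26.3%), 11 of 47 2-cell cells (23.4%), 7 of 41 8-cell cells (17.1%) and 2 of 10 ES cells (20%). The exact Clopper-Pearson 95% intervals, which cover counting error only, ran from 6.38% to 26.2% in oocytes and from 12.3% to 38% in 2-cell embryos and overlap. Thinned to equal reads, the shares were 19.6%, 10.5%, 14.9%, 12.2% and 20% in the same order. At that depth 1 read was worth an OE of 0.871 to 1.09 in a Hox bin. All thinned shares given here and below are therefore coarse. Within HoxA the bin of Hoxa5 to Hoxa13 was at 0 in 17 of 56 oocytes and 17 of 41 8-cell cells.

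HoxD, which patterns limb digits through Hoxd13 and its neighbours, ran from the highest of the 4 clusters in 2-cell embryos to the lowest in ES cells. Its mean OE was 1.55 ± 1.08 (n = 47) in 2-cell cells, with a lowest, median and highest cell at 0, 1.32 and 4.36. ES cells lay between 0.161 and 0.742, with a median of 0.357 and a mean of 0.420 ± 0.256 (n = 10). HoxD was in contact in 32 of 47 2-cell cells (68.1%, interval 52.9% to 80.9%) and in 0 of 10 ES cells (interval 0% to 30.8%), and these intervals do not overlap. Thinned to 23563 reads in every cell, the shares were 66.0% (interval 50.7% to 79.1%) and 20% (2.52% to 55.6%), and the intervals then overlapped. At that depth 1 read was worth an OE of 1.07 or 1.09 in the HoxD bins, so a few reads decided each call. Zygotes (1.04 ± 0.622), 8-cell embryos (1.02 ± 0.753) and oocytes (0.771 ± 0.561) lay between, and the per-cell ranges of neighbouring stages in this order overlapped. For comparison, bins outside both LAD lists had a mean of 0.970 in oocytes, 0.774 in zygotes, 0.711 in 2-cell, 0.712 in 8-cell and 0.672 in ES cells.

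**Figure D1:**
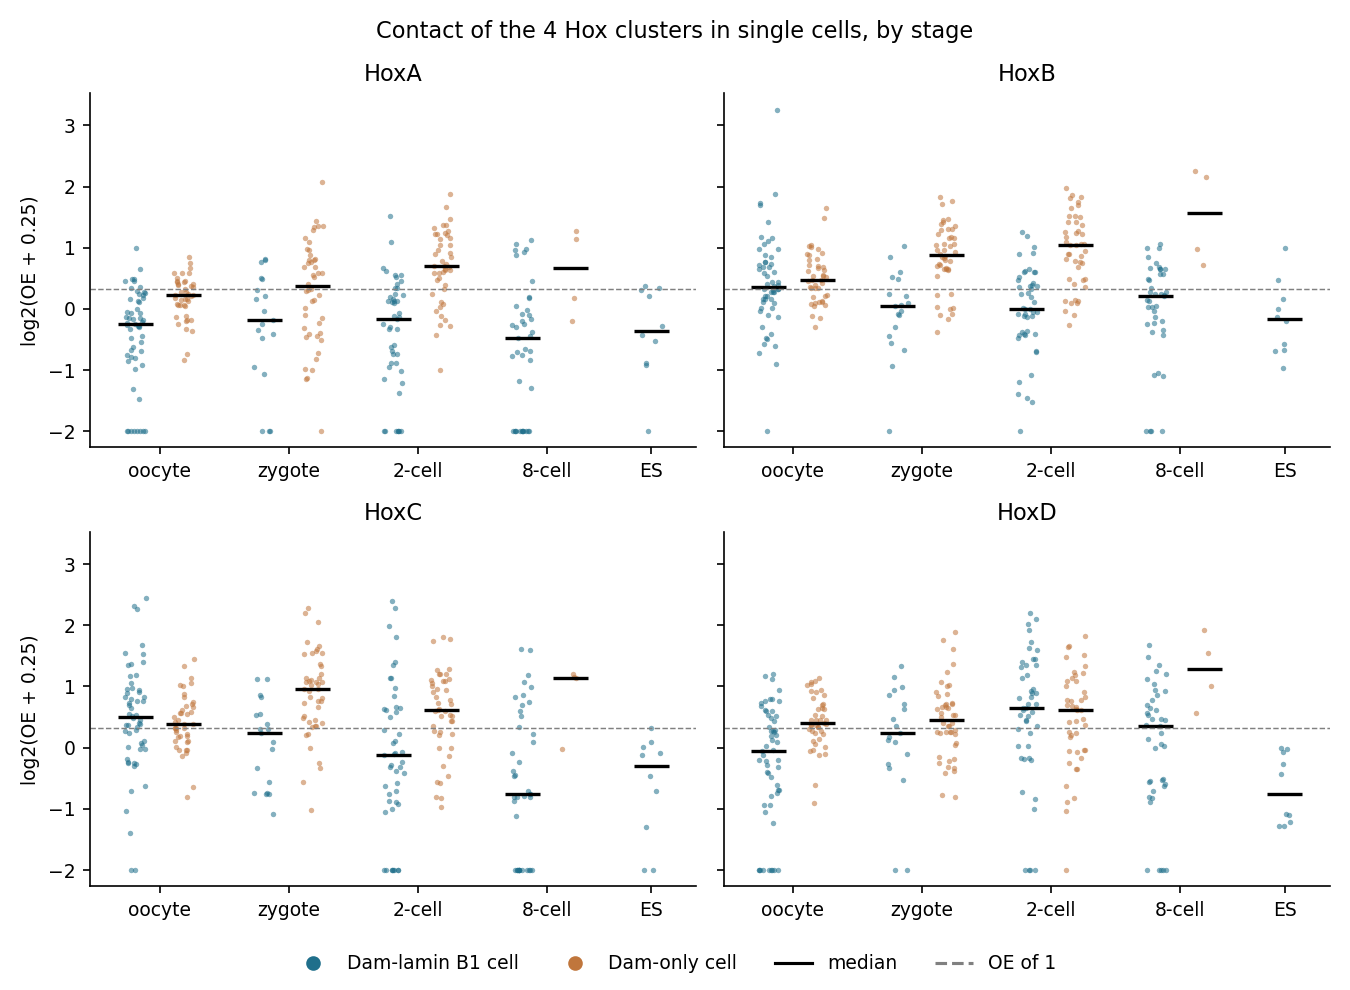
Cluster OE of every cell on the log2(OE + 0.25) scale, by stage, for Dam-lamin B1 (blue) and Dam (orange), with the group median as a black bar and OE 1 as a dashed line. HoxD in 2-cell Dam-lamin B1 cells has its median above OE 1, at 1.32, and all 10 ES cells lie below that line.

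The posterior end of HoxD carried the larger part of that range. The bin of Hoxd9 to Hoxd13 had a mean OE of 0.569 ± 0.609 in oocytes, 1.18 ± 0.825 in zygotes, 1.86 ± 1.45 in 2-cell, 0.997 ± 0.957 in 8-cell and 0.480 ± 0.474 in ES cells. Ranked among all bins by mean OE it stood above 24.0% of them in oocytes, 69.3% in zygotes, 90.4% in 2-cell embryos, 58.1% in 8-cell embryos and 8.40% in ES cells. The neighbouring bin of Hoxd1, Hoxd3, Hoxd4 and Hoxd8 stood above 59.8%, 49.9%, 70.6%, 61.6% and 2.73%, in the same order of stages. In 2-cell Dam-lamin B1 cells the 5 bins to the right of HoxD, on the side of Mtx2, averaged 1.70, the 5 bins to the left 0.923, and the next 5 on the left 0.539. The high values thus extended beyond the genes on the right side. In ES cells both sides were low, with means of 0.727 on the left and 0.512 on the right.

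HoxB and HoxC, which hold Hoxb1 of the hindbrain and the trunk-patterning Hoxc6 and Hoxc8, were highest in oocytes. So was the mean of bins outside both LAD lists, at 0.970 in oocytes, 0.774 in zygotes and 0.672 to 0.712 in the later groups. HoxB had a mean OE of 1.33 ± 1.28 in oocytes, with 1 cell at 9.32, and 1.18 without that cell. Its means were 0.814 ± 0.441 in zygotes, 0.849 ± 0.494 in 2-cell, 0.874 ± 0.493 in 8-cell and 0.722 ± 0.447 in ES cells, which differ by less than any of their SDs. HoxC had its means in the order of 1.41 ± 1.06 in oocytes, 1.03 ± 1.16 in 2-cell embryos, 0.918 ± 0.539 in zygotes, 0.681 ± 0.773 in 8-cell embryos and 0.494 ± 0.354 in ES cells, and the cells of every stage overlapped those of the next. HoxC was at an OE of at least 1 in 62.5% of oocytes (interval 48.5% to 75.1%). It was in contact in 34% of 2-cell cells (20.9% to 49.3%) and 10% of ES cells (0.253% to 44.5%). After thinning these shares were 62.5%, 34% and 0%. The bin of Hoxc4 to Hoxc6 stood above 98.6% of all bins in oocytes, with a mean of 1.92 ± 1.56, and that of Hoxc8 to Hoxc13 above 51.7%, with 0.890 ± 1.00. The Hoxb13 bin stood above 91.4% of bins in oocytes.

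In oocytes Dam alone gave these clusters mean values of a similar size. HoxB had a mean of 1.24 ± 0.469 (n = 43) and HoxC of 1.15 ± 0.457 in oocytes with Dam. The cells at an OE of at least 1 made up 69.8% and 60.5%. Depth differed, with a median of 181957 reads with Dam and 47946 with Dam-lamin B1. Thinned to equal reads, the shares with Dam were 48.8% for HoxB and 34.9% for HoxC, against 55.4% and 62.5% with Dam-lamin B1. In the 2 oocyte groups with labelled doses the values were close together: HoxC averaged 1.02 ± 0.465 (n = 17) at 20 ng and 1.15 ± 0.358 (n = 23) at 50 ng, and HoxA 0.728 ± 0.447 and 0.771 ± 0.468.

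Dam alone gave higher mean values than Dam-lamin B1 in 13 of the 16 pairs of cluster and stage. The 3 exceptions were HoxB and HoxC in oocytes and HoxD in 2-cell embryos. In 2-cell embryos Dam gave HoxD a mean of 1.33 ± 0.774 (n = 45). HoxD was at an OE of at least 1 in 62.2% of these Dam cells (interval 46.5% to 76.2%), a range that overlaps that of Dam-lamin B1. Bins outside both LAD lists were higher with Dam as well. They averaged 1.21 in oocytes, 1.37 in zygotes, 1.45 in 2-cell and 1.94 in 8-cell embryos with Dam. With Dam-lamin B1 they averaged 0.970, 0.774, 0.711 and 0.712 in the same order. With Dam, HoxA had means of 0.917 in oocytes, 1.16 in zygotes, 1.48 in 2-cell and 1.41 in 8-cell embryos, and HoxB of 1.24, 1.66, 1.84 and 2.96. The 8-cell Dam group held 4 cells. HoxB was at 1.40, 1.73, 4.20 and 4.53 in those cells, and HoxD at 1.23, 3.56, 2.68 and 1.76. HoxA was at 2.16, 0.882, 1.96 and 0.622, so that its cells lay on both sides of an OE of 1, whereas all 4 cells had HoxB and HoxD above 1.

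**Figure D2:**
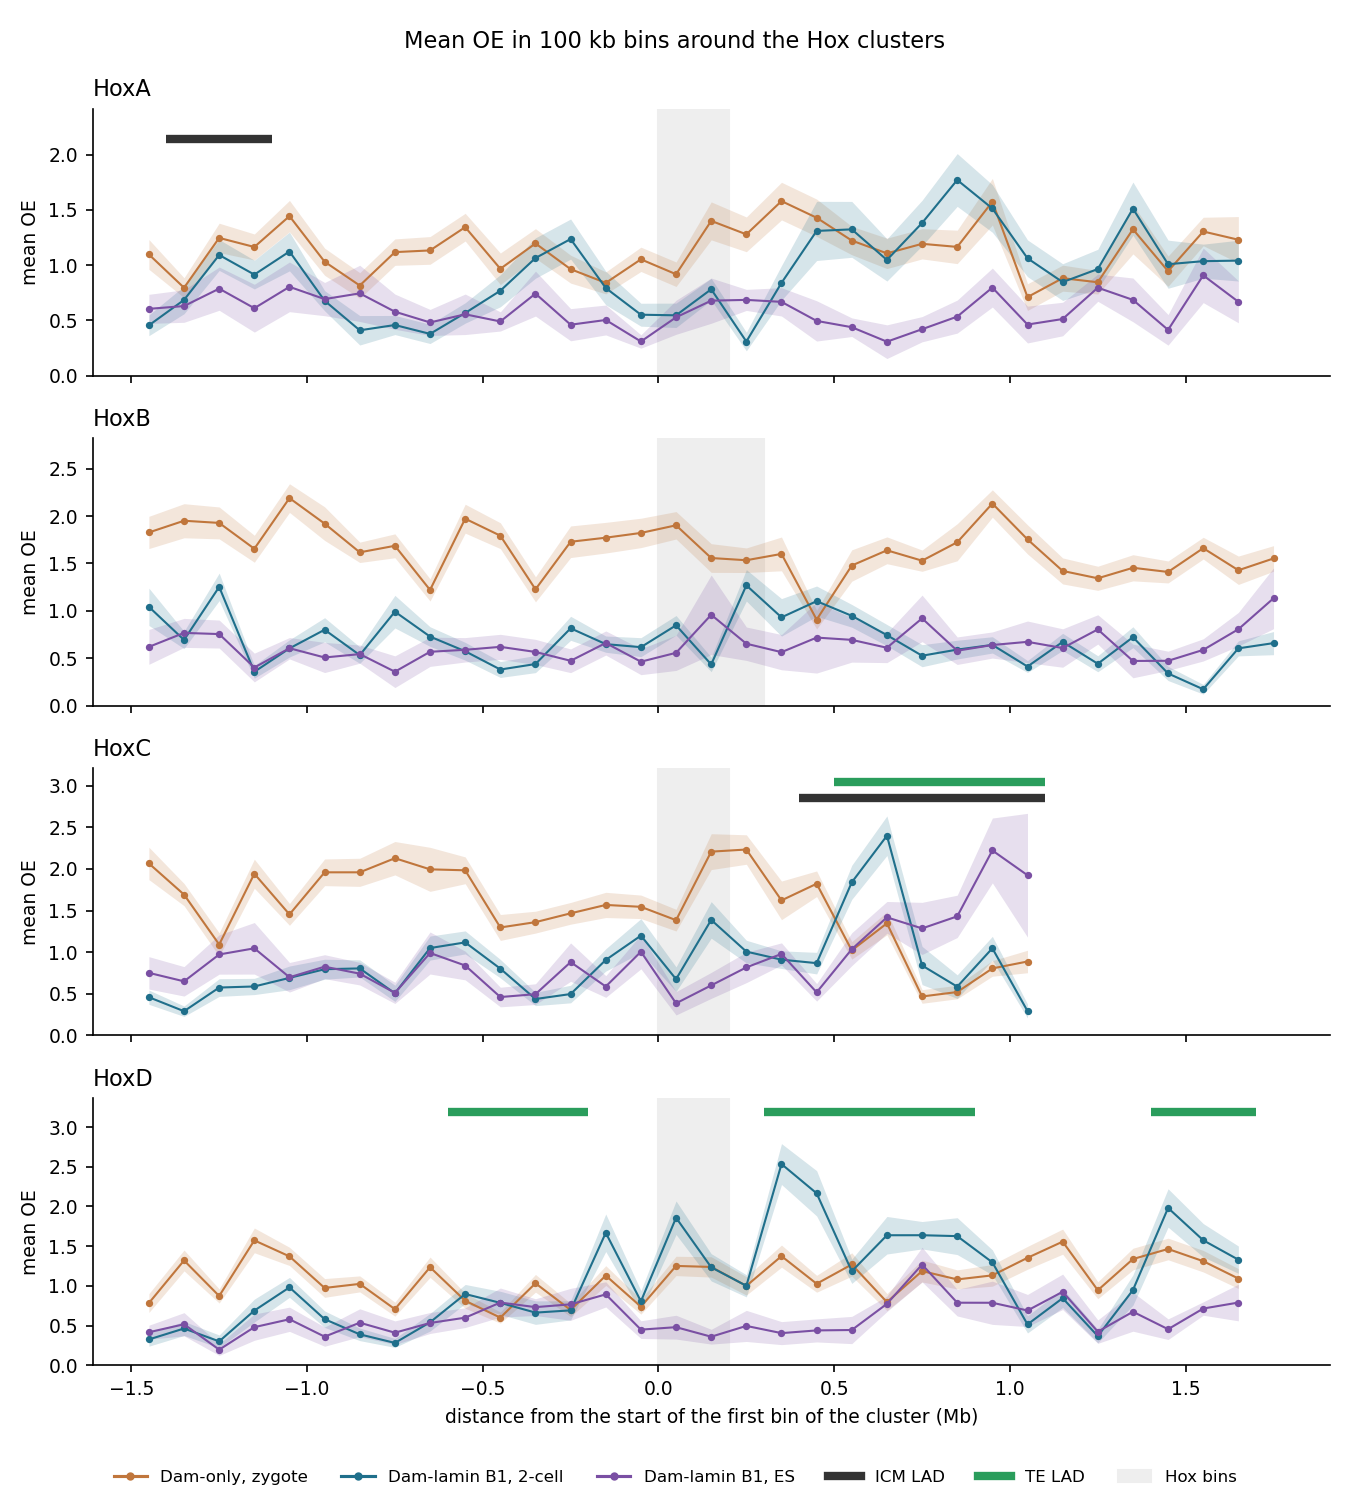
Mean OE ± SEM in 100 kb bins over 1.5 Mb on either side of each cluster (less to the right of HoxC, where the chromosome ends), for zygotes with Dam and for 2-cell and ES cells with Dam-lamin B1, with Hox bins in grey and ICM and TE LADs as bars. The 2-cell curve runs above the ES curve over HoxD (means of 1.55 and 0.420) and the 5 bins to its right (1.70 and 0.512) and below it in places farther right, and within HoxA both curves stay below the Dam curve.

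HoxC had a LAD in its right flank, which ends with the chromosome 9 bins beyond the cluster. In ES cells the last 4 of these bins, all inside the LAD of both lists, averaged 1.72, against 0.494 in the cluster and 0.686 in the 5 bins to its left. The same bins averaged 1.41 in zygotes, 0.692 in 2-cell and 2.05 in 8-cell embryos, against 0.918, 1.03 and 0.681 in the cluster, so the 2-cell order was the opposite. In oocytes they averaged 0.398. HoxC lay below the mean of its flanks (the 10 bins beyond each end, and for HoxC the 9 on the right, 7 of them in the ICM LAD) in 8 of 10 ES cells and 31 of 41 8-cell cells, HoxD in 8 of 10 and 24 of 41, and HoxA in 3 of 10 and 28 of 41. HoxB was embedded in bins like itself: with Dam in 2-cell embryos its own mean was 1.84, against 2.07 in the 5 bins to the left and 1.38 in the 5 to the right.

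In zygotes, where each cell is a separate embryo, Dam-lamin B1 (n = 19) was tested against Dam (n = 46) with limma on log2(OE + 0.25) over all bins. Which mother, litter or day an embryo came from is not in the labels, so all p-values given here measure only the spread between these embryos. Pronuclei were treated as separate too, though the titles do not say which paternal and maternal pronuclei came from the same zygote. Most Hox bins had less lamina than accessibility signal: 6 of 9 Hox bins were lower with Dam-lamin B1 at a Benjamini-Hochberg adjusted p under 0.05, against 37.9% of all bins and 74.6% of bins outside both LAD lists. The Hox share thus lies near that of other bins outside LADs. The median log2 difference was −0.67 over the 9 bins, −0.37 over all bins and −0.88 over bins outside both lists.

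The central HoxB genes showed the largest difference. The bin of Hoxb6 to Hoxb9 had a lowest, median and highest OE of 0, 0.599 and 2.38 with Dam-lamin B1 and of 0, 1.42 and 5.04 with Dam, so the groups overlapped. The difference was −1.29 ± 0.28 (log2, SE; limma adjusted p = 3.37e-05), with 16 of 19 cells below the Dam mean. The Hoxb13 bin (−1.21 ± 0.26, limma adjusted p = 3.34e-05) and that of Hoxc8 to Hoxc13 (−1.15 ± 0.28, limma adjusted p = 0.000226) followed. The bins of Hoxa5 to Hoxa13 (−0.73, limma adjusted p = 0.0195), Hoxc4 to Hoxc6 (−0.67, 0.0144) and Hoxd1 to Hoxd8 (−0.62, 0.0458) were lower as well. Among the bins that did not pass, Hoxb1 to Hoxb5 differed by −0.55 (limma adjusted p = 0.0610) and Hoxd9 to Hoxd13 by −0.10 (0.761). Hoxd9 to Hoxd13 had medians of 1.08 with Dam-lamin B1 and 1.22 with Dam.

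Windows of 300 kb were centred on the bin with the most Hox genes of a cluster and took in a bin on either side. All 4 clusters were lower with Dam-lamin B1, against 47% of all windows and 6779 of 7631 windows outside both LAD lists. The median difference was −0.68 over the Hox windows, −0.32 over all windows and −0.78 over windows outside both lists. The Hox windows thus resembled other windows outside LADs. Each window also takes in a neighbouring bin without Hox gene midpoints, and the HoxB window leaves out the Hoxb13 bin. HoxA differed by −0.69 ± 0.18 (limma adjusted p = 0.000448; 17 of 19 cells below the Dam mean), HoxB by −0.81 ± 0.17 (1.32e-05; 18 of 19), HoxC by −0.66 ± 0.16 (0.000163; 16 of 19) and HoxD by −0.38 ± 0.17 (0.0395; 13 of 19). The HoxD difference did not pass once every cell was thinned to the same number of reads (−0.15, limma adjusted p = 0.592). Median depth was 41810 reads in the Dam-lamin B1 zygotes and 94294 in the Dam zygotes. With only the 6 and 39 cells of at least 50000 reads, 1 of the 4 windows (HoxC, −0.61, limma adjusted p = 0.0293) and 1 of the 9 bins passed. When each window was set against its own flanks 300 kb to 1 Mb away, 0 of 4 clusters passed with limma (1 at an unadjusted p under 0.05, HoxC at −0.40), against 24.4% of all places. A difference between constructs beyond that of the flanks was thus not shown.

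The genes bordering the clusters and the regulators of Hox genes lay mostly on the same side in this comparison. Of the first 2 protein-coding genes on each side, 3 of 4 were in lower bins at HoxA (Snx10 at −1.5, Hibadh at −1.38), 4 of 4 at HoxB, 3 of 4 at HoxC and 2 of 4 at HoxD (Lnpk at −0.95). Bins of 8 of 9 Hox cofactor genes (the Pbx, Meis and Pknox homeodomain partners), 13 of 15 Polycomb genes and 7 of 7 trithorax genes were lower, with the largest differences at the Polycomb gene Phc2 (−1.92) and at Kmt2a (−1.52) and Ash2l (−1.40), a histone H3 lysine 4 methyltransferase and a subunit of its complex. Of all bins 37.9% were lower, and of bins outside both LAD lists 74.6%. Of the related homeobox genes, 4 of 6 ParaHox and Evx genes and 2 of 6 Dlx genes were in lower bins.

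**Figure D3:**
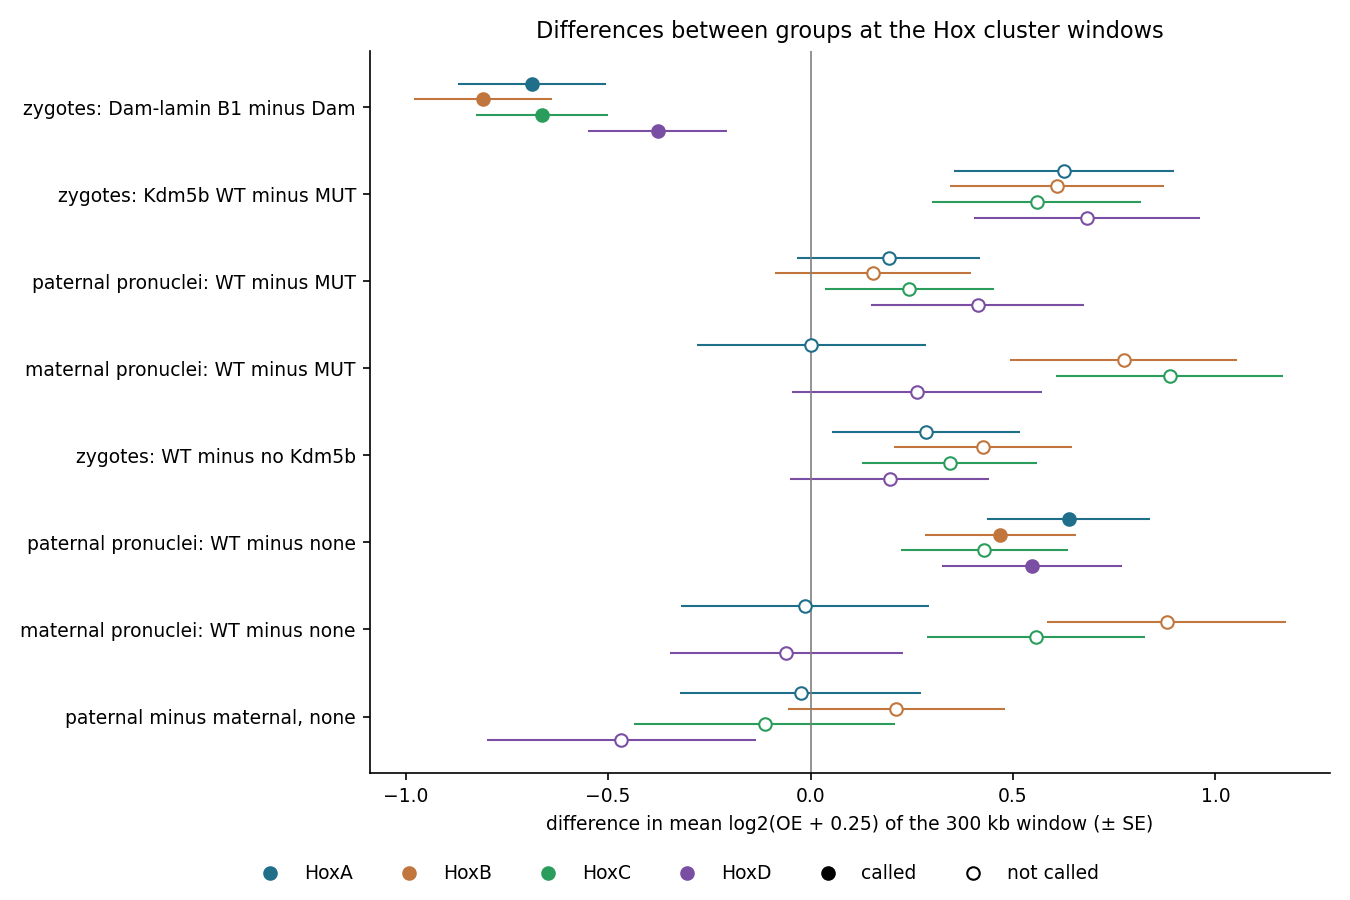
Log2 difference ± SE of the 4 Hox windows in 8 comparisons of zygotes and pronuclei, with filled points for adjusted p under 0.05. All 4 windows are filled below 0 in Dam-lamin B1 against Dam (−0.38 to −0.81), and HoxA, HoxB and HoxD are filled above 0 in paternal pronuclei with wild-type Kdm5b against none.

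The Kdm5b groups ask whether an H3K4 demethylase changes lamina contact. Embryos with Kdm5b were injected earlier in the zygote stage than untreated ones and spent the interval in auxin, which cannot be told apart from Kdm5b itself in a comparison with none. In paternal pronuclei wild-type Kdm5b (n = 19) came with higher Hox values than no Kdm5b (n = 15). HoxA had a lowest, median and highest cell at 0.436, 0.805 and 2.82 with Kdm5b and at 0, 0.519 and 1.5 without, and HoxB at 0.362, 0.836 and 3.17 against 0.291, 0.514 and 0.944. The groups overlapped, with 9 of 19 cells in HoxB contact with Kdm5b (47.4%) and 0 of 15 without (interval 0% to 21.8%), and 31.6% and 0% after thinning. Bins outside both LAD lists averaged 1.08 with wild-type Kdm5b and 0.734 without. The HoxA window rose by 0.64 ± 0.20 (limma adjusted p = 0.0108; 18 of 19 cells above the control mean), HoxD by 0.55 ± 0.22 (0.0415; 17 of 19) and HoxB by 0.47 ± 0.19 (0.0371; 17 of 19), while HoxC differed by 0.43 ± 0.21 (0.0802; 17 of 19).

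These 3 of 4 windows compare with 32.2% of all windows and 62.0% of windows outside both LAD lists. Of single bins 1 of 9 rose, against 7.36% of all bins: that of Hoxb6 to Hoxb9, by 0.96 ± 0.32 (limma adjusted p = 0.0409; 16 of 19 cells). The median over the 9 bins was 0.57, against 0.27 over all bins and 0.57 outside both lists. Against their own flanks 0 of 4 clusters passed the adjusted threshold with limma, against 1.46% of all places. At an unadjusted p under 0.05 there were 0 clusters. A rise beyond that of the flanks was not shown. In the same pronuclei the contrast between LAD and other bins was −0.09 on average with wild-type Kdm5b, above 0 in 9 of 19, and 0.76 without, above 0 in 15 of 15. Thinned to equal reads, HoxA stayed past the threshold (0.80, limma adjusted p = 0.0437), HoxC passed it (0.78, 0.0447), and HoxB (0.54, 0.135) and HoxD (0.31, 0.411) did not. Of other genes, 1 of 9 cofactor genes (Meis3, 1.11) and 2 of 15 Polycomb genes (Ezh1, 1.03, and Phc1, 0.95) were in bins that rose. So was 1 of 4 genes flanking HoxA (Hibadh, 1.16), and no gene of the remaining lists, against 7.36% of all bins.

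The mutant form offers the matched control, and against it no Hox bin or window passed in any of the 3 kinds of sample. These comparisons share their wild-type or untreated cells with the ones above and below. In paternal pronuclei the 6 cells with mutant Kdm5b lay at 1.40, 0.601, 1.13, 0.298, 0.683 and 1.05 for HoxA and at 0.694, 1.20, 0.839, 0.965, 0.444 and 1.02 for HoxB, within the range of the wild-type cells except for 1 HoxA cell. The mutant medians were 0.867 for HoxA and 0.902 for HoxB, above the wild-type medians of 0.805 and 0.836. For HoxC and HoxD they were below, at 0.693 and 0.592 against 1.01 and 1.07. Wild-type against mutant differed by 0.19 ± 0.23 for HoxA, 0.15 ± 0.24 for HoxB, 0.24 ± 0.21 for HoxC and 0.41 ± 0.26 for HoxD. At the adjusted threshold limma called 0 of 4 windows (4.59% of all windows) and 0 of 9 bins (0.0167% of all bins). At an unadjusted p under 0.05 there were 0 windows and 1 bin, for which the shares of all windows and bins are not given. Mutant against none likewise gave 0 of 9 bins (0.00836% of all) and 0 of 4 windows (0% of all) by limma, 0 of either at an unadjusted p under 0.05, with HoxA at 0.44 ± 0.32 and HoxB at 0.32 ± 0.27. With 6 cells, mutant values could be told neither from the wild-type nor from the untreated values.

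In whole zygotes the windows of all 4 clusters had a log2 difference above 0 for wild-type against mutant Kdm5b, and none passed the adjusted threshold. The HoxA cluster had close medians, 0.659 with the wild-type and 0.666 with the mutant form. HoxB had a lowest, median and highest cell at 0.395, 1.02 and 1.73 with wild-type Kdm5b (n = 14) and at 0, 0.665 and 0.936 with the mutant (n = 9), and HoxD at 0, 0.817 and 1.44 against 0.101, 0.281 and 0.980. HoxB was in contact in 9 of 14 wild-type zygotes and in 0 of 9 mutant ones, but in 50% and 33.3% after thinning. Thinned values are coarse, so whether these shares depend on depth itself could not be told. The windows differed by 0.68 ± 0.28 for HoxD (limma adjusted p = 0.133; 13 of 14 wild-type cells above the mutant mean), 0.63 ± 0.27 for HoxA (0.152; 13 of 14), 0.61 ± 0.26 for HoxB (0.151; 14 of 14) and 0.56 ± 0.26 for HoxC (0.176; 13 of 14). That makes 0 of 4 windows by limma at the adjusted threshold, against 0% of all windows. At an unadjusted p under 0.05 there were 4 of 4, for which the share of all windows is not given here. The median difference was 0.62 over the 4 windows, 0.18 over all windows and 0.51 over windows outside both LAD lists. Windows outside both lists thus shifted the same way.

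All 9 Hox bins had a log2 difference above 0 for the wild-type form, 0 of them called by limma (0% of all bins) and 4 at an unadjusted p under 0.05: Hoxb13 at 1.38 ± 0.40 (limma adjusted p = 0.107), Hoxd9 to Hoxd13 at 1.07 ± 0.41 (0.176), Hoxc4 to Hoxc6 at 0.88 ± 0.38 (0.221) and Hoxb1 to Hoxb5 at 0.84 ± 0.40 (0.270). The share of all bins at that unadjusted threshold is not given here. The median over the Hox bins was 0.66, over all bins 0.24 and over bins outside both lists 0.56, so bins outside LADs shifted the same way. Median depth was 216228 reads with the wild-type, 85761 with the mutant form and 41810 without Kdm5b. Thinned to equal reads, the windows differed by 0.52 to 0.87 (limma adjusted p from 0.204 to 0.410). Wild-type against none gave 0 of 9 bins (1.48% of all) and 0 of 4 windows (1.37% of all) by limma, 1 bin and 0 windows at an unadjusted p under 0.05, with HoxB at 0.43 ± 0.22 and HoxD at 0.20 ± 0.25. Mutant against none gave 0 of 9 bins (0.00419% of all) and 0 of 4 windows (0.0126% of all) by limma, 1 bin and 0 windows at an unadjusted p under 0.05, with HoxD at −0.49 ± 0.31 and the Hoxd9 to Hoxd13 bin at −1.19 ± 0.50 (limma adjusted p = 0.631). Of other listed genes, 1 of 9 cofactor genes (Meis2, 1.58) and 1 of 15 Polycomb genes (Eed, a core subunit, 1.36) were in bins that rose with wild-type Kdm5b against none. So was 1 of 4 genes flanking HoxD (Lnpk, on the left, 1.44), and no gene of the remaining lists, with 1.48% of all bins called.

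**Figure D4:**
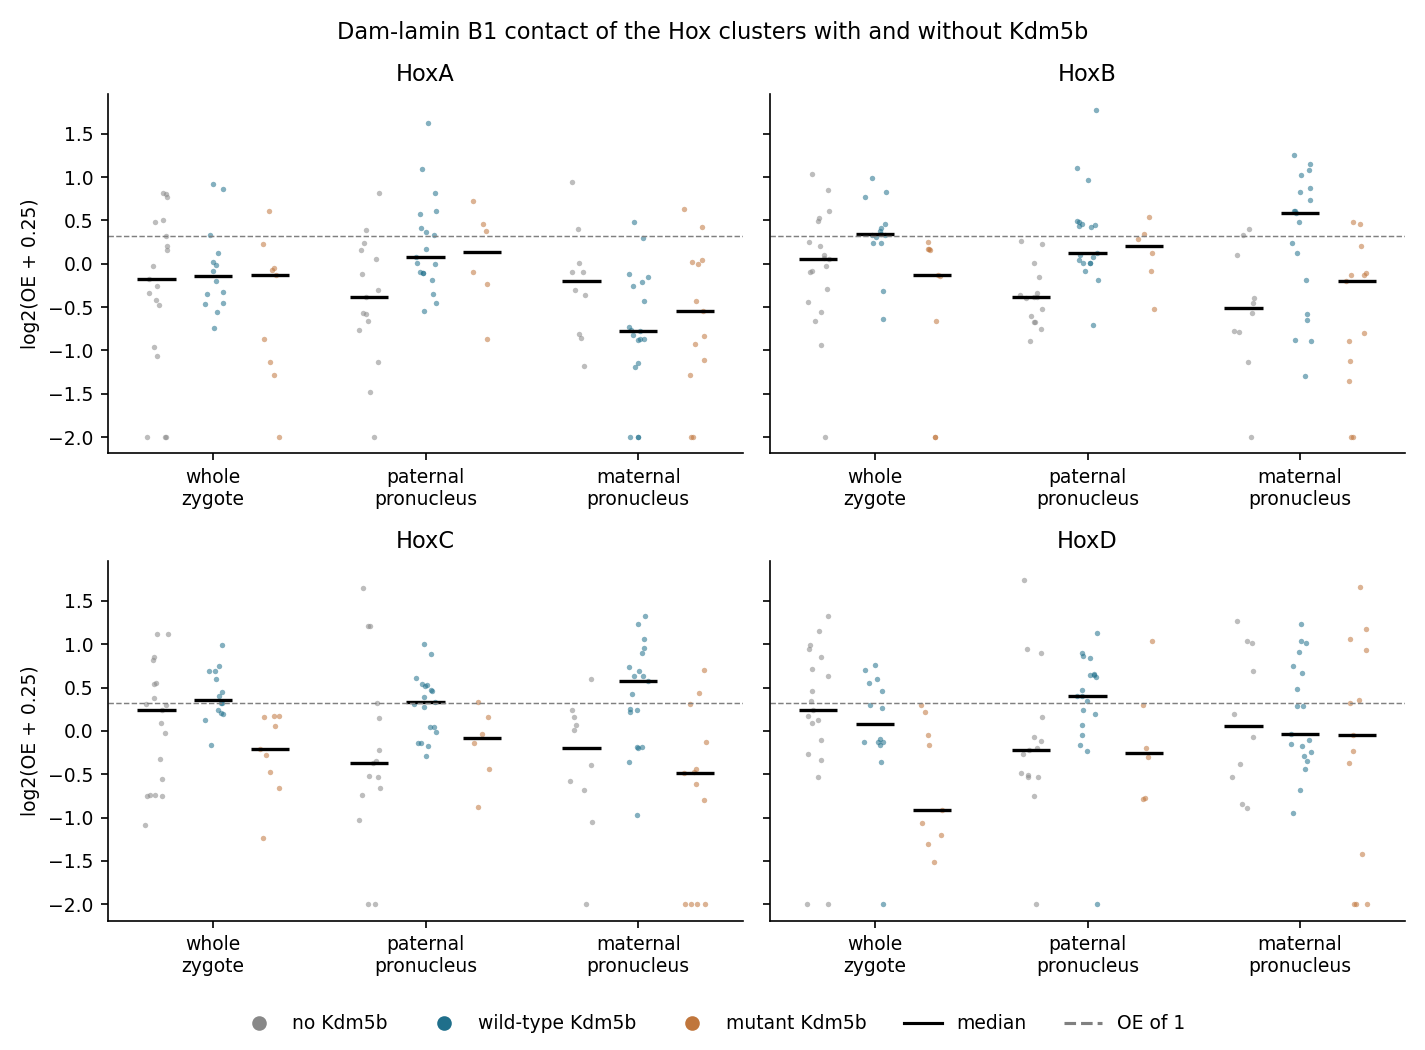
Cluster OE per cell on the log2(OE + 0.25) scale in whole zygotes, paternal and maternal pronuclei without Kdm5b and with its wild-type or mutant form, with group medians. Wild-type cells sit higher than untreated cells at HoxA and HoxB in paternal pronuclei (medians of 0.805 and 0.519 for HoxA), whereas HoxA in maternal pronuclei does not (0.336 and 0.623). Paternal mutant cells have medians of 0.867 for HoxA and 0.902 for HoxB, above the wild-type medians of 0.805 and 0.836, and lie below the wild-type at HoxC and HoxD.

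In maternal pronuclei the estimated differences between the forms were larger for HoxC and HoxB than for HoxD and HoxA, and none passed. HoxC had a lowest, median and highest cell at 0.262, 1.24 and 2.25 with wild-type Kdm5b (n = 19), at 0, 0.465 and 1.37 with the mutant (n = 13) and at 0, 0.634 and 1.26 without (n = 10). HoxB medians were 1.25, 0.620 and 0.452 in that order, and HoxA medians 0.336, 0.435 and 0.623. The windows of wild-type against mutant differed by 0.89 ± 0.28 for HoxC (limma adjusted p = 0.202; 19 of 19 cells above the mutant mean), 0.77 ± 0.28 for HoxB (0.260; 17 of 19), 0.26 ± 0.31 for HoxD (0.750) and 0.0018 ± 0.28 for HoxA (0.998). Thus limma called 0 of 4 windows (0% of all windows) and 0 of 9 bins (0% of all bins), while 2 windows and 4 bins had an unadjusted p under 0.05. The shares of all windows and bins at that unadjusted threshold are not given, here or below. The median difference was 0.52 over the Hox windows, 0.15 over all windows and 0.30 over windows outside both LAD lists.

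Wild-type against none in maternal pronuclei gave 0 of 9 bins (0.00418% of all) and 0 of 4 windows (0.0167% of all) by limma, 0 bins and 2 windows at an unadjusted p under 0.05, with HoxB at 0.88 ± 0.30 (limma adjusted p = 0.251), HoxC at 0.56 ± 0.27 (0.404), HoxA at −0.014 ± 0.31 and HoxD at −0.060 ± 0.29. Mutant against none gave 0 of 9 bins (0% of all) and 0 of 4 windows (0% of all) by limma, 0 of either at an unadjusted p under 0.05, with differences from −0.33 ± 0.37 for HoxC to 0.11 ± 0.33 for HoxB. Whether Kdm5b acts differently on the 2 pronuclei was tested as the difference of the wild-type and mutant contrasts, paternal minus maternal. It was −0.64 ± 0.37 for HoxC, −0.62 ± 0.38 for HoxB, 0.19 ± 0.38 for HoxA and 0.15 ± 0.44 for HoxD, with 0 of 4 windows passing in limma (adjusted p from 0.781 to 0.973; 0 at an unadjusted p under 0.05) and 0% of all windows. A difference between the pronuclei was thus not shown for any cluster.

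Without Kdm5b no Hox difference between the pronuclei passed the test: paternal against maternal gave 0 of 9 bins (2.10% of all) and 0 of 4 windows (5.43% of all) by limma, 0 of either at an unadjusted p under 0.05, with windows from −0.47 ± 0.33 for HoxD to 0.21 ± 0.27 for HoxB. Among the listed genes, 1 of 9 cofactor genes (Pbx3, −1.53) and 1 of 4 genes flanking HoxD (Mtx2, on the right, −1.59) were in bins lower in paternal pronuclei. No gene of the remaining lists was called, with 2.10% of all bins called. Wild-type against mutant Kdm4d in zygotes gave 0 of 9 Hox bins (0.00419% of all) and 0 of 4 windows (0% of all) by limma, and 0 of either at an unadjusted p under 0.05. HoxA averaged 0.603 ± 0.265 (n = 12) and 0.599 ± 0.341 (n = 10), HoxD 0.718 ± 0.362 and 0.835 ± 0.489. In zygotes labelled DMSO and aphidicolin, which were described and not tested, HoxA averaged 0.706 ± 0.378 (n = 11) and 0.748 ± 0.328 (n = 9), HoxC 0.733 ± 0.337 and 0.684 ± 0.325, each closer together than its SDs.

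The 4 clusters lie on different chromosomes, and most cells had only some of them in contact. The mean number of clusters at an OE of at least 1 was 1.63 in oocytes, 1.37 in zygotes, 1.64 in 2-cell and 1.34 in 8-cell embryos with Dam-lamin B1, and 0.5 in ES cells, where 5 of 10 cells had none and 5 had 1. With Dam it was 2.33, 2.76, 2.87 and 3.25 from oocytes to 8-cell embryos. Thinned to equal reads, the means were 1.89, 1.05, 1.45 and 1.24 with Dam-lamin B1 and 1.79, 2.33, 2.40 and 3.25 with Dam. In oocytes the order of the constructs thus turned, at a depth where 1 read was worth an OE of 0.871 to 1.09 in a Hox bin. Of whole zygotes, 8 of 9 with mutant Kdm5b had no cluster in contact (mean 0.111), against 2 of 14 with the wild-type form (mean 1.71) and 3 of 19 without Kdm5b (mean 1.37). Thinned to equal reads these means were 1, 1.5 and 1.05. At that depth a few reads decide whether a cluster passes, so thinning cannot settle whether the low count with the mutant form depends on depth. Of paternal pronuclei, 3 of 19 with wild-type Kdm5b had all 4 clusters in contact (mean 2.05), 0 of 6 with the mutant form (mean 1.17) and 0 of 15 without (mean 0.6), and the means were 1.53, 1.33 and 0.667 after thinning. Bins outside both LAD lists averaged an OE of 1.08, 0.833 and 0.734 in these groups. With wild-type Kdm5b their mean thus passed the threshold as well, and the counts are not particular to Hox clusters.

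**Figure D5:**
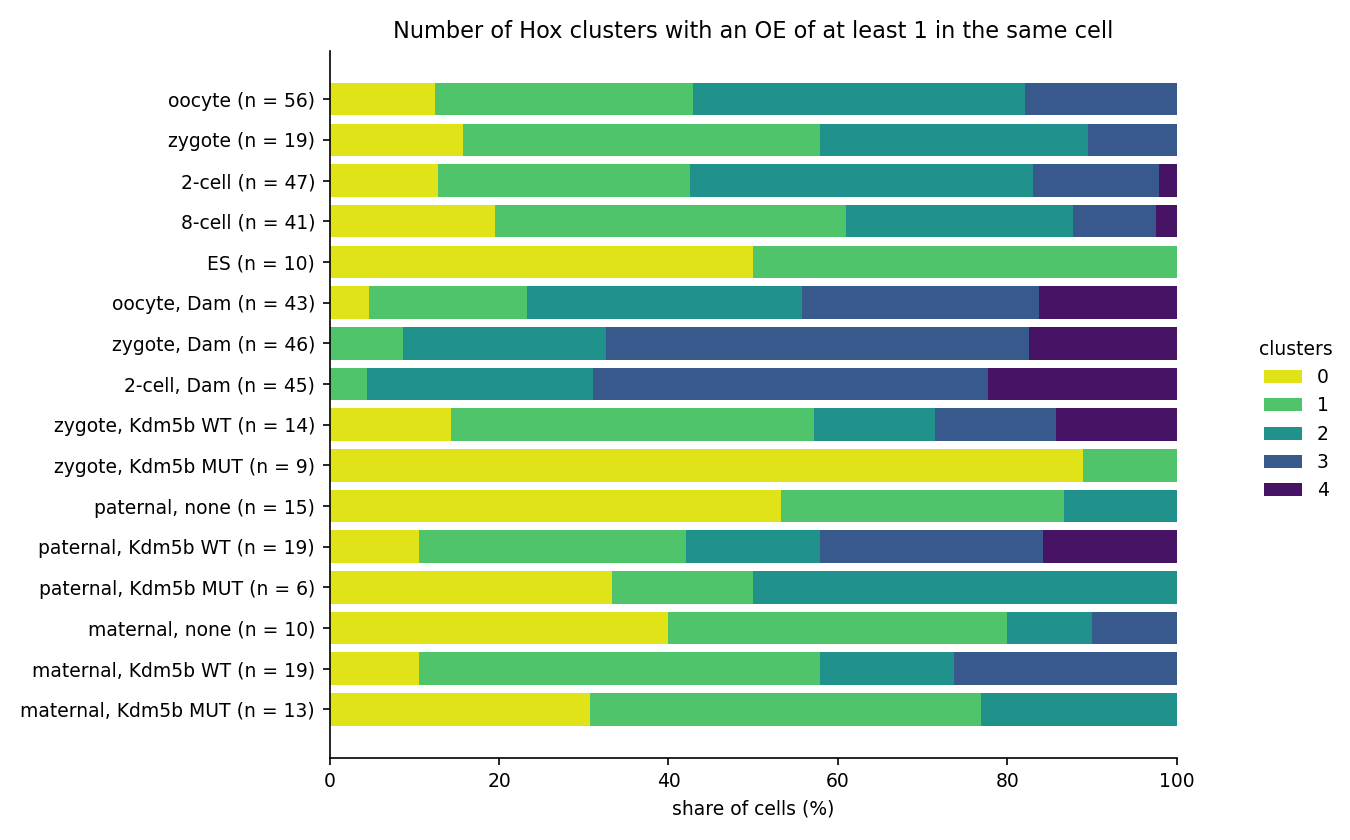
Share of the cells of each group with 0 to 4 Hox clusters at an OE of at least 1. ES cells have at most 1 cluster in contact, and 8 of 9 zygotes with mutant Kdm5b have none.

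Across 2-cell Dam-lamin B1 cells, Pearson's r between the OE of 2 clusters ran from −0.31 (HoxC with HoxD) to 0.18 (HoxA with HoxC) over 47 cells, which share sparse counts and differ in depth. Adjacent bins of 1 cluster had a median r of 0.24, and adjacent bins over all chromosomes 0.23. Over the 19 groups of at least 10 cells, r ran from −0.59 to 0.84. HoxA with HoxB had an r of 0.84 in zygotes with mutant Kdm4d (n = 10) and 0.82 in paternal pronuclei with wild-type Kdm5b (n = 19), but −0.21 in untreated paternal pronuclei (n = 15) and −0.43 in ES cells (n = 10). HoxB with HoxD had 0.77 in ES cells. These values describe sparse counts in few cells and were not tested.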

How the data were processed

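Single-cell DamID of lamin B1 or Dam alone was analysed from a table of observed over expected (OE) values in 24639 autosomal bins of 100 kb, of which 617 had no value, and from the ICM and TE lists of LADs. The authors deposited these values as a ratio of observed to expected reads. Per the submitters' processing notes, cutadapt, BWA 0.7.12 and mm10 were used. The sources used here do not state how expected reads and LADs were made, nor the doses for ES cells, Kdm4d, DMSO and aphidicolin zygotes or pronuclei without Kdm5b.

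OE was a whole multiple of a step for each bin and cell, within a tolerance of 0.02, for 100% of values in the bins used, and relative depth was recovered from it as the number of reads that gives whole counts. Bins above 0 in at least 10% of the cells compared were tested with limma 3.58.1 (R 4.3.3) on log2(OE + 0.25), each comparison on its own 2 groups, with Benjamini-Hochberg adjustment over all bins and a threshold of 0.05. Differences are on that log2(OE + pseudocount) scale, which understates changes of low bins. The same was done for 300 kb windows and for windows against flanks 300 kb to 1 Mb away. Tables used Python 3.11.15, numpy 2.4.6, pandas 2.3.3 and scipy 1.17.1, and the fit was tested on simulated data. The named genes are the 39 Hox genes (values of 1 bin are not reported here), the first 2 protein-coding genes on each side of a cluster, and called genes of the cofactor, ParaHox and Evx, Dlx, Polycomb and trithorax lists, the largest change first and at most 3 a comparison. Members, lists and tests were chosen with earlier results of these data known. Alternatives were other pseudocounts, no filter, thinning to equal reads, depth minima of 100000 and 50000 reads (the second chosen after seeing the data), array weights, a replicate block, other windows and flanks, and genes placed by their start site. Cells without a consistent group label (14) were left out of all comparisons.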

Additional observations from a re-analysis of the deposited data

Results flagged for a closer look

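HoxC in 8-cell embryos with Dam alone had a cell at an OE of 0.737, far from the others: the next lowest of the 4 cells was at 1.94. The gap to that neighbour made up more of the range of the group than Dixon's test allows at 95%. The test was run on 28 combinations of cluster and group, and chance gives about 1 in 20. The same cell had the highest HoxB value of the group, 4.53, and the lowest HoxA value, 0.622.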

How the results depend on the processing

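Depth limits these values most: a Hox bin held a median of 1 to 10 reads per cell, and 1 read was worth a median OE of 0.108 to 0.649. Of the zygote bins called lower with Dam-lamin B1 (6 of 9), 3 passed after thinning, 0 with cells of at least 100000 reads (2 against 19 cells) and 1 with at least 50000. Of the 4 windows, 0 and 1 passed with these depth minima. In paternal pronuclei with wild-type Kdm5b against none (1 bin called), 0 bins passed at a pseudocount of 0.1, after thinning and with at least 100000 reads, 2 at a pseudocount of 1 and with at least 50000 reads, and 4 with array weights.

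Whether the replicate numbers of the titles pair the cells could not be settled. Deviations of same-numbered cells had a mean r of −0.0075 to 0.0402 over the comparisons, but with so few reads per bin a low r cannot exclude pairing. Single pairs exceeded an r of 0.1, 2 of 9 in whole zygotes with wild-type against mutant Kdm5b and 1 of 10 with Kdm4d. With a replicate block, 3 zygote bins were called, and in paternal pronuclei with wild-type Kdm5b against none 0 bins and 1 window (3 without the block). The block changed the direction of the HoxA window in maternal wild-type against mutant Kdm5b (−0.054) and no other count by over 1.5 times.

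Under the alternatives, 401 log2 differences kept their sign and side of the threshold, 39 lost a call, 13 gained one and 26 turned sign. In zygotes with Dam-lamin B1 against Dam, Hoxd13's bin turned to 0.092 after thinning, 0.093 with at least 50000 reads and 0.015 with at least 100000, where Hoxb13's bin was at 0.0015. With at least 100000 reads, wild-type against mutant Kdm5b turned to −0.37 (Hoxa5 bin), −0.056 (Hoxb9 bin) and −0.0083 (HoxA window) in zygotes, and to −0.014, −0.043, −0.14 and −0.15 at the HoxA, HoxB, HoxC and HoxD windows in paternal pronuclei, where HoxB also turned to −0.086 after thinning. In maternal pronuclei the HoxA window, near 0, turned to −0.039 (pseudocount 0.1), −0.0099 (thinned), −0.27 (100000 reads), −0.086 (50000 reads), −0.018 (array weights) and −0.016 (500 kb windows). The paternal minus maternal Kdm5b difference turned to −0.037 for HoxA (1 Mb windows) and, for HoxD, to −1.38 (100000 reads), −0.44 (50000 reads), −0.11 (500 kb windows), −0.28 (1 Mb windows) and −0.17 (thinned). The cause was not tested, beyond the fewer cells that the depth minima leave.

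The 33 counts of 0 stayed 0 under their 307 alternatives. Dam exceeded Dam-lamin B1 in 13 pairs of cluster and stage whichever of the 4 8-cell Dam cells was left out (range 13 to 13). At a contact threshold of 1.5 in place of 1, or after thinning, 14 shares of cells in contact left their interval and 26 did not.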

Other observations

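The table holds 13 oocytes whose labels contradict each other on the mRNA dose and 1 8-cell cell labelled with both constructs, all outside the comparisons. In the 13 oocytes the lowest, median and highest OE were 0.318, 0.847 and 1.64 at HoxA, 0.224, 0.914 and 1.45 at HoxB, 0.294, 1.02 and 2.14 at HoxC, and 0.317, 1.30 and 1.91 at HoxD. The 8-cell cell had an OE of 0.271 at HoxA, 1.11 at HoxB, 0.546 at HoxC and 1.41 at HoxD.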
